A study of Homo sapiens with 26 samples.

Results

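Macrophages that had spent 14 days in a Biowire together with FB cells were compared with macrophages of the same FB+MF mix that are labelled as digested control cells. A Biowire is an engineered microtissue grown between supports, and the label of the FB+MF mix names no cardiomyocytes. The comparison uses 6 of the 26 samples of the series, 3 Biowire FB+MF libraries and 3 digested FB+MF libraries, and every gene symbol present in both deposited count tables, 17919 in all. Both groups are wild-type macrophages (MF) made from the human embryonic stem cell line hES2, and FB is read here as fibroblasts, a word the labels do not spell out. The time label is day 14 for the Biowire macrophages and the 40 min digestion itself for the controls, which have no culture day in the labels. The labels give the same protocol for both groups: 40 min of enzymatic digestion with flavopiridol, a transcription inhibitor, and a ROCK inhibitor, then a sort with antibodies against CD14 and CD45 before total RNA was sequenced. Both groups therefore share the line, the digestion, the sort and the library kit. The Biowire libraries stand in one deposited table and the digested libraries in another, so that table and culture differ together and a batch difference cannot be removed. A single stem cell line was used. The labels do not say whether replicates are independent cultures, and p-values therefore cover the spread among the 6 libraries, part of which may come from handling.

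Macrophages engulf dying cells and debris, digest them in lysosomes, and pass on or store the cholesterol they take up. They make their own cholesterol when the sterol-regulated transcription factor SREBF2 is active and export it when liver X receptors (LXR) are active. They also carry receptors for microbes and antibodies, whose signals reach NF-kB and turn on chemokines and cytokines, and the heart holds resident macrophages known by genes such as FOLR2, LYVE1 and TIMD4.

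Depth was 10668086 to 12426918 counts per library in the Biowire group and 10275678 to 10829127 in the digested group. Levels are given as normalized CPM, counts scaled to the library total after TMM correction for composition, and changes as log2 fold changes ± SE of Biowire over digested. The digested libraries resembled each other more (Pearson's r of log2 CPM across genes 0.992 for each pair) than the Biowire libraries did (0.968 to 0.978), and r between the groups was 0.881 to 0.894. Biowire replicate 1 stood apart from the other two, with a chi-square per degree of freedom of 24.5 and 26.8 against replicates 2 and 3, which differed from each other by 5.55. It held a summed level of 6642 normalized CPM of 33 interferon-stimulated genes, against 2159 and 2427 in replicates 2 and 3. It also held less NEAT1, a long noncoding RNA of the nucleus, at 1909 normalized CPM against 6607 and 6706. Some results that lean on this library are given with and without it, and others only as values of each library.

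**Figure D1:**
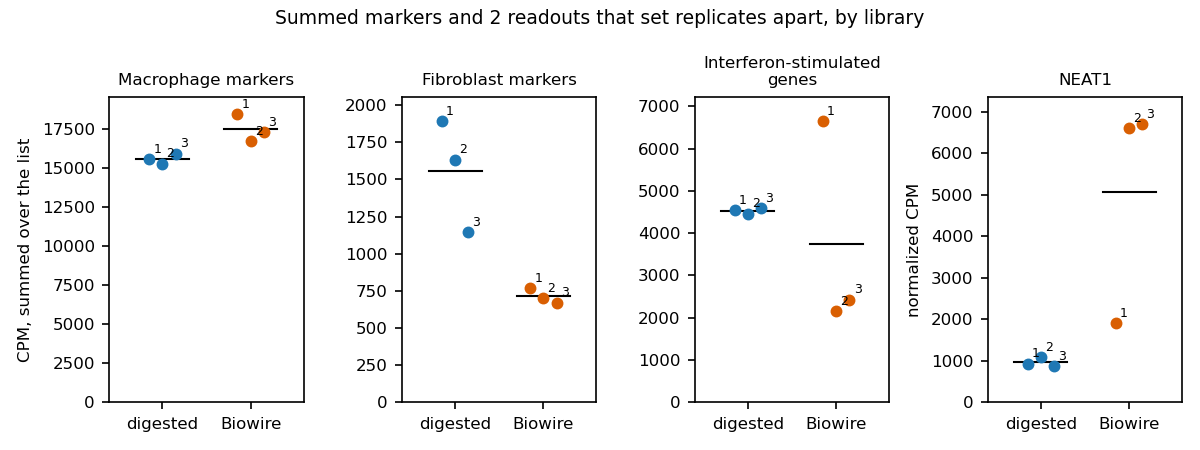
Summed markers and 2 readouts by library, with numbers for replicates and bars for means of n = 3. Marker sums are CPM scaled to library totals, and interferon-stimulated genes and NEAT1 are normalized CPM. Biowire replicate 1 is the highest of all libraries for interferon-stimulated genes and the lowest Biowire library for NEAT1, and the 3 digested libraries range from 1145 to 1892 CPM for fibroblast markers.

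The sorted cells were checked against markers. All 22 macrophage markers were present, with a summed level of 17518 ± 869 CPM (SD, n = 3) in Biowire and 15617 ± 327 in digested cells, led by CD68. These sums are scaled to library totals. With TMM scaling they were 16670 ± 926 in Biowire and 16410 ± 355 in digested cells, and the groups overlapped. The gene of the sorting antigen CD14 had 332, 392 and 423 normalized CPM in the 3 Biowire libraries and 417, 390.0 and 422 in the digested ones, a log2 fold change of -0.10 ± 0.09 that did not pass the test (edgeR, adjusted p = 0.362). PTPRC, which encodes the second antigen CD45, fell slightly, from 266, 259 and 259 to 205, 214 and 235 (-0.26 ± 0.07, adjusted p = 0.00865). With library totals in place of TMM scaling PTPRC lost its call (adjusted p = 0.179), and CD14 changed sign at 0.04.

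RNA of fibroblast markers moved with the comparison. The summed level of 16 fibroblast markers was 1892, 1632 and 1145 CPM in the digested libraries and 767, 701 and 671 in the Biowire libraries, 2.18 times higher in the digested group with no overlap. In the macrophages sorted without FB cells the same sum was 274 to 298 CPM in digested and 530 to 656 in Biowire libraries. The sum is therefore not a measure of FB cells alone. For FB+MF the exact two-sided permutation p was 0.1, the smallest that 3 against 3 allows. Of the 13 fibroblast markers tested, 7 fell and 2 rose, MFAP5 and SPARC. FN1, fibronectin, had 729, 603 and 382 normalized CPM in digested and 88.4, 60.4 and 67.6 in Biowire libraries, a log2 fold change of -2.98 ± 0.23 (adjusted p = 2.89e-06), and FBN1, fibrillin, fell by 4.56 ± 0.30. POSTN, a matrix protein of activated fibroblasts, fell from 115, 95.1 and 59.4 to 5.79, 4.01 and 6.06. Smooth muscle and pericyte markers summed to 66.9 ± 3.81 CPM in digested and 23.3 ± 4.40 in Biowire cells, led by TAGLN. Cardiomyocyte markers were low in both groups, at 52.4 ± 24.2 and 43.1 ± 4.17 CPM (exact permutation p = 0.9), and without TTN, the most abundant of them, the log2 difference turned from 0.15 to -1.36 (exact permutation p = 0.1). Of the markers 5 of the 15 in both tables were at 0 in all 6 libraries. Neutrophil and mast cell markers summed to 109 ± 6.89 CPM in Biowire and 26.2 ± 1.94 in digested cells, nearly all of it CSF3R, which macrophages also express. Endothelial markers, led by VWF, were at 10.2 ± 4.33 and 3.98 ± 0.61 CPM, lymphoid markers, led by NKG7, at 8.72 ± 2.95 and 0.26 ± 0.15, pluripotency markers at 2.12 ± 0.79 and 1.11 ± 0.39, and erythroid markers under 1 CPM in every library. Fewer cells of a type and less RNA per cell cannot be told apart in these sorted bulk samples. When the 171 genes that were higher in digested FB+MF than in digested MF were left out, a choice made after seeing the data, 3431 genes were called lower in place of 3517, and 3361 higher in place of 3391. The part of the fibroblast RNA in the falls of other genes was not tested further.

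Of 13076 genes tested, 6908 passed an adjusted p of 0.05 in edgeR's quasi-likelihood test, a background of 52.8%. Among them 3391 were higher (25.9% of genes tested) and 3517 lower (26.9%) in Biowire cells. With a log2 change of at least 1 as well, 1367 rose and 1195 fell, together 19.6%. The 3 and 3 libraries did not overlap for 62.1% of all genes tested. The median log2 change over all genes was 0.01, and it moved by 0.14 when library totals replaced TMM scaling. That scaling called 4407 genes higher and 2713 lower, so that 61.9% of calls were rises, against 49.1% with TMM. Without Biowire replicate 1 the test called 7940 genes. Each gene group below is to be read against these shares.

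**Figure D2:**
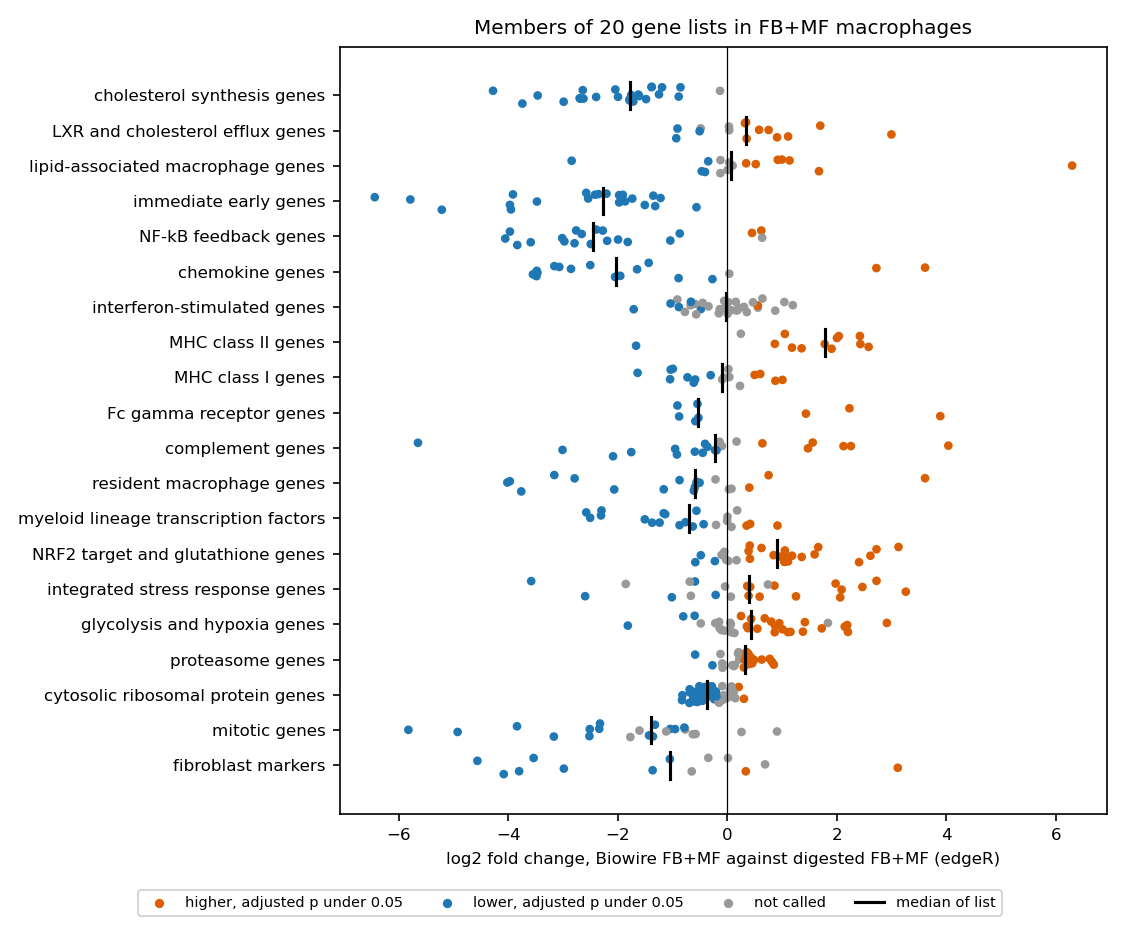
Log2 fold changes, Biowire over digested FB+MF, of every tested member of 20 gene lists, colored by whether the member was called, with a bar at each list's median. Cholesterol synthesis, immediate early, NF-kB feedback and chemokine genes lie mostly below 0, and MHC class II and NRF2 genes mostly above it.

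The genes of cholesterol synthesis were lower in Biowire cells almost throughout. Of 25 members tested, 24 fell and 0 rose, with a median log2 change of -1.78 against 0.01 over all genes, and PMVK alone was not called (-0.13). DESeq2 and an unadjusted p under 0.05 also gave 0 rises. HMGCS1, which makes the precursor HMG-CoA, had 26.3, 21.1 and 28.1 normalized CPM in the Biowire libraries and 500.1, 477 and 488 in the digested libraries. Its log2 fold change was -4.28 ± 0.10 (edgeR, adjusted p = 2.69e-09). SQLE, squalene epoxidase, fell from 353, 332 and 350.2 to 30.1, 31.3 and 32.7 (-3.46 ± 0.07), and no library of one group reached the other. FDFT1, squalene synthase, was lower by 1.99 ± 0.06 on the log2 scale. The call counts were the same, 0 higher and 24 lower, without Biowire replicate 1 and with library totals. Other members, picked after their values were seen, belong to the control of this synthesis by sterols. SREBF2 itself fell from 361, 357 and 344 to 146, 124 and 139, and INSIG1, which holds SREBP in the endoplasmic reticulum, from 446, 421 and 440.1 to 82.3, 70.9 and 56.7.

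Promoters of these genes are shown because so many members moved together. The CCAAT box, the site of the factor NF-Y, and its reverse complement ATTGG were searched in the 250 bases before the start of each gene in RefSeq's promoter table (GRCh38.p14, a newer build than the hg19 of the counts). It was present in 15 of the 18 cholesterol synthesis genes with a window, or 83.3%, and in 34.8% of the windows of all 9675 tested genes that matched the table. The windows of HMGCS1 (GRCh38.p14, chr5:43313413-43313662, minus strand) and LSS, lanosterol synthase (chr21:46228775-46229024, minus strand), members with small p-values, are printed 5′ to 3′ on the gene's strand and end at the base before the start, with each match in capitals.
HMGCS1: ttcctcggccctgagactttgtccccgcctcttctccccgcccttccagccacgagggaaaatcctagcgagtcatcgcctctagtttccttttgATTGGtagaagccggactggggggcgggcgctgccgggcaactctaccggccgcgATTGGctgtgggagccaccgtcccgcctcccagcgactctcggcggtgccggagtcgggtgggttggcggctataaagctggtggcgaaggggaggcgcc
LSS: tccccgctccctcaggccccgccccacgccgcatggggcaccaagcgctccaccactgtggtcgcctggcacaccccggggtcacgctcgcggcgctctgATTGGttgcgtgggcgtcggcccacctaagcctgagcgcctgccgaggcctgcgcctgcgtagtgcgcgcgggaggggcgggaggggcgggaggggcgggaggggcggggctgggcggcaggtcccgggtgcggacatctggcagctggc
HMGCS1 holds 2 matches and LSS 1. They were picked by p-value among called members with a match, leaving out the chromosome that holds SQLE and FDFT1. The larger share of this list with the box may follow from the choice of its members, which share a pathway. That share says nothing about the change in Biowire cells. A match is a description of the letters and no evidence of binding.

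Genes of cholesterol export and lipid storage moved in both directions. Of 15 LXR and efflux genes tested, 9 rose and 3 fell (NPC2, SCD and SREBF1), with a median of 0.35. ABCG1, a transporter that moves cholesterol to lipoproteins, had 50.3, 52.9 and 37.3 normalized CPM in Biowire and 6.48, 4.98 and 6.10 in digested libraries (3.00 ± 0.17, adjusted p = 3.88e-07). ABCA1, the other main exporter, was picked after its values were seen and was not called (0.03). NPC1, which releases cholesterol from lysosomes, rose from 92.7, 94.6 and 92.4 to 314, 281 and 313, while its partner NPC2 fell from 589, 577 and 598 to 289.8, 327 and 324. The apolipoprotein genes APOE and APOC1 rose by 0.35 ± 0.07 and 1.11 ± 0.08 on the log2 scale. PLIN2, the coat protein of lipid droplets, rose from 569.6, 538 and 568 to 1774, 1875 and 1701. FABP4, a fatty acid carrier, was nearly undetected in digested libraries, at 0.823, 0.609 and 0.194, and reached 48.0, 46.6 and 34.4 in Biowire libraries (6.30 ± 0.29). LPL, the lipase that frees fatty acids from lipoproteins, moved the other way, from 823, 816 and 835 to 109, 115 and 122 (-2.84 ± 0.06). Of 16 genes of lipid-associated macrophages, 7 rose and 4 fell, with a median of 0.07. TREM2, GPNMB, ITGAX and LPL were the 4 that fell.

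Uptake receptors also split. Of 27 efferocytosis genes, which act in the engulfing of dying cells, 14 rose and 7 fell, with a median of 0.25. CD36, which binds oxidized lipids and apoptotic cells, rose from 739, 714 and 756 to 1452, 1513 and 1448 (1.00 ± 0.05). LRP1, a receptor of large cargo range, rose from 1508, 1488 and 1473 to 3104, 3001 and 3079 with no overlap. ITGB3, the beta chain of a vitronectin receptor, rose by 3.36 ± 0.19, and MARCO, a scavenger receptor, had 407, 238 and 237 against 51.8, 52.8 and 52.4. STAB1, a scavenger receptor that binds phosphatidylserine, fell from 1975, 2165 and 1920.5 to 374, 494 and 582 (-2.06 ± 0.14).

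Immediate early genes, which cells turn on within minutes of a stimulus, fell without exception. All 22 were tested, 22 fell, and their median was -2.28 (21 fell with library totals). DUSP1, a phosphatase that ends MAP kinase signals, had 11.5, 10.7 and 11.1 normalized CPM in Biowire and 163, 161 and 178 in digested libraries (-3.91 ± 0.09, adjusted p = 2.35e-09). FOS, a subunit of the factor AP-1, had 30.3, 26.2 and 28.1 against 164, 161 and 167 (-2.54 ± 0.08). IER3 fell from 406, 372 and 415 to 23.6, 23.1 and 29.6. Heat shock genes, another group that responds to handling, moved less: 9 of 19 fell and 1 rose (CHORDC1), with a median of -0.31, and HSPA8 went from 1997, 1921 and 1989 to 1296, 1286 and 1207. Without Biowire replicate 1, 13 heat shock genes fell. Both groups are labelled with the same digestion protocol, and the time between the end of culture and lysis is not given for either.

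The targets that NF-kB turns on to limit itself fell as well. Of 20 tested, 17 fell, BCL2A1 and SOD2 rose and TNIP3 was not called, with a median of -2.44. TNFAIP3 (A20), which removes ubiquitin chains from the pathway, had 58.0, 58.9 and 53.6 normalized CPM in Biowire and 468, 451 and 457 in digested libraries (-3.01 ± 0.07, adjusted p = 2.35e-09). NFKB1, a subunit of the factor itself, fell from 305, 302 and 305 to 40.8, 34.7 and 40.5 (-2.97 ± 0.08). ICAM1, an adhesion molecule, fell from 1506, 1433 and 1491 to 314, 333 and 322. The kappa B motif, spelled GGG, any 2 bases, TTTCC, and its reverse complement (GGAAA, any 2 bases, CCC) were found in 5 of the 17 list members with a promoter window, or 29.4%, and in 2.01% of all 9675 windows. TNFAIP3 (chr6:137867009-137867258, plus strand) and NFKB1 (chr4:102501109-102501358, plus strand) are printed as above, with the matches in capitals.
TNFAIP3: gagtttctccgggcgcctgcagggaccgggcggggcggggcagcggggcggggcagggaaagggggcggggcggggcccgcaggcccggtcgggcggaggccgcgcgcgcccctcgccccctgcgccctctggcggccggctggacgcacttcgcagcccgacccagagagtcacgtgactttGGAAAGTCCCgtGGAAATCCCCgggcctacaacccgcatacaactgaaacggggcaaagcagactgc
NFKB1: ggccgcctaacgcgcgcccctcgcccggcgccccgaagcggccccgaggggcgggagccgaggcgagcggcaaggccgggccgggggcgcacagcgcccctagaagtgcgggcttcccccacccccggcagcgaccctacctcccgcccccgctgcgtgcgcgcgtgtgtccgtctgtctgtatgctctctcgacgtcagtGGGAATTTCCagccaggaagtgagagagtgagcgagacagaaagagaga
Within TNFAIP3 the 2 matches lie 67 and 55 bases before the start, and the match of NFKB1 lies 49 bases before it. The list was made of NF-kB targets, so its larger share with the motif may follow from that choice. It says nothing about the change in Biowire cells, and a match is no evidence of binding.

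Inflammatory messengers were lower. Of 18 chemokine genes tested, 15 fell, CCL18 and CXCL5 rose, and the median was -2.02. CCL2, which draws monocytes, fell from 740.1, 699 and 764 to 107, 93.5 and 104 (-2.85 ± 0.07), and CXCL3, which draws neutrophils, from 141, 137 and 138 to 12.5, 19.3 and 18.1. CCL18, a chemokine of alternatively activated macrophages, rose from 48.5, 44.8 and 51.4 to 616, 538 and 616 (3.61 ± 0.08). IL1B had 3.32, 2.32 and 3.93 normalized CPM in Biowire and 151, 151 and 139.6 in digested libraries (-5.52 ± 0.14, adjusted p = 3.58e-09). TNF fell from 37.4, 35.0 and 32.8 to 1.85, 2.40 and 1.71. The receptor IL1R1 rose, from 26.3, 28.6 and 24.8 to 156, 126 and 138. Among interleukins and their receptors as a whole, 11 of 23 fell and 8 rose, and the median of 0.25 changed sign in the DESeq2 fit, in the fit of 18 libraries and without the filter. Chemokine receptor genes fell in 5 of 10 cases and rose in 3, with a median of -0.53. CXCR4, the receptor of the retention chemokine CXCL12, was among those that rose, from 2.37, 1.93 and 2.42 to 22.8, 29.7 and 28.8.

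**Figure D3:**
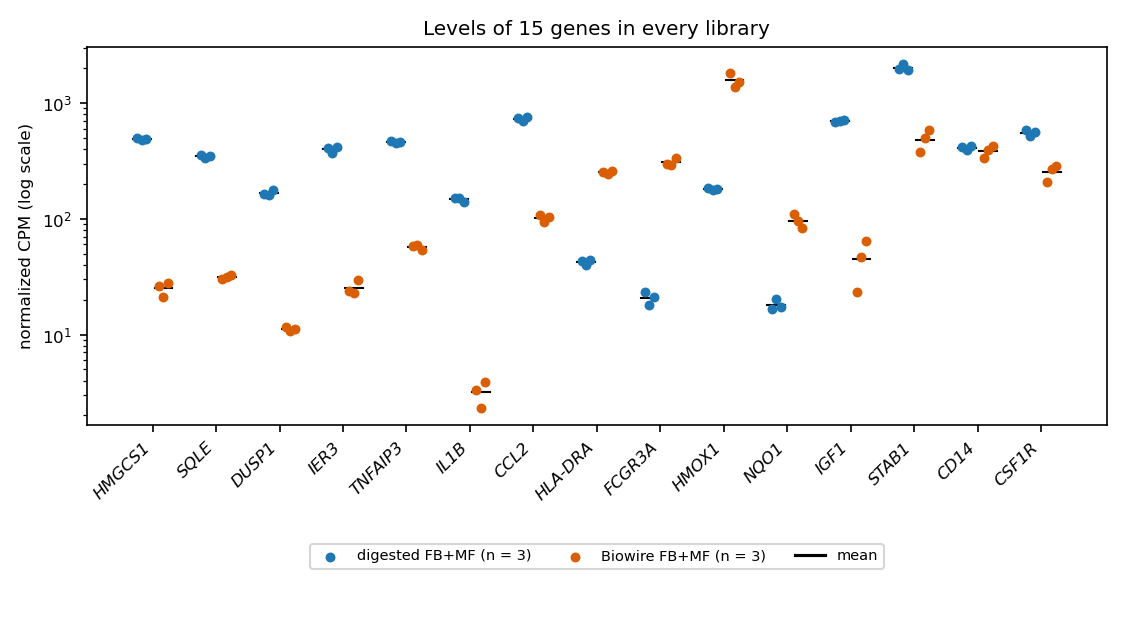
Normalized CPM (log scale) of 15 genes in each of the 6 libraries, with bars for means of n = 3. The groups do not overlap for 14 of the genes; CD14 is the exception.

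Genes of antigen presentation by MHC class II were mostly higher in Biowire cells, and those of class I moved both ways. Of 13 MHC class II genes, 11 rose, HLA-DMB fell and RFX5 was not called, with a median of 1.78. HLA-DRA, the alpha chain of HLA-DR, had 256, 246 and 256 normalized CPM in Biowire and 43.3, 39.6 and 43.7 in digested libraries (2.58 ± 0.07, adjusted p = 4.65e-09). CD74, the chaperone that guides class II molecules, rose from 720.4, 678 and 733 to 1927, 1692 and 1841. HLA-DMB, which helps to load peptides and was picked after its values were seen, fell from 529, 511 and 539.8 to 145, 182 and 172. HLA-DRB1 and HLA-DRB5 rose by 2.04 ± 0.09 and 2.43 ± 0.09, but their sequences are so alike that reads may be split between them. Of 17 class I genes, 8 fell and 4 rose. HLA-B and HLA-E fell by 1.03 ± 0.09 and 0.99 ± 0.08. The class I median was -0.09, and 0.05 with library totals. Without Biowire replicate 1, 9 class I genes fell and 4 rose, and the median was -0.33.

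All 8 receptors for antibodies that were tested changed, 3 up and 5 down. FCGR3A, which encodes CD16, had 299, 289.7 and 337 normalized CPM in Biowire and 23.2, 17.98 and 21.2 in digested libraries, and its log2 fold change of 3.89 ± 0.11 was the largest of the list (adjusted p = 4.65e-09). FCGR1A, the high-affinity receptor CD64, rose from 22.7, 21.6 and 21.3 to 101, 101 and 106, and FCGR1B rose as well. Both genes have near-identical copies, so their reads may be shared. The inhibitory receptor FCGR2B fell from 178, 167 and 166 to 75.4, 93.9 and 102, and the shared signalling chain FCER1G from 226, 233 and 232 to 105, 143 and 128. Of 21 complement genes, 12 fell and 6 rose. C1QA, part of the recognition molecule C1q, fell from 879, 848 and 880.2 to 231, 250.5 and 292, whereas the protease gene C1S rose from 18, 17.4 and 18.2 to 357, 261 and 262 (4.04 ± 0.14), and CR1, a receptor of opsonized particles, from 42.3, 39.1 and 43.6 to 156, 210.2 and 232. Among myeloid inhibitory receptors 9 of 23 fell and 6 rose, with CD300A at 66.7, 84.7 and 93.1 against 5.04, 4.77 and 6.003 and SIGLEC10 at 31.7, 37.1 and 33.5 against 3.19, 3.35 and 3.58.

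Genes of tissue-resident macrophages were mostly lower. Of 19 tested, 13 fell, CCL18, CD163 and PLTP rose, and the median was -0.59. FOLR2, a folate receptor that marks resident macrophages of the heart and other organs, had 60.3, 93.0 and 120.5 normalized CPM in Biowire and 639.5, 608 and 639 in digested libraries (-2.79 ± 0.20). IGF1, a growth factor made by resident macrophages, fell from 680.3, 696 and 710.3 to 23.2, 46.5 and 64.0 (-3.97 ± 0.28). F13A1, a coagulation factor typical of the resident type, fell from 1915, 1898 and 1918 to 62.7, 86.6 and 206 (-4.01 ± 0.37). The 3 Biowire libraries spread widely for these genes, and replicate 1 was the lowest for each of FOLR2, IGF1 and F13A1. TIMD4, picked after its values were seen, was not called (-0.21). CSF1R, the receptor that keeps macrophages alive, fell from 583, 523 and 557 to 209, 268 and 284 (-1.13 ± 0.11, adjusted p = 1.22e-05). Of 22 transcription factors of the myeloid lineage, 14 fell and 3 rose (CEBPB, NR1H3 and TFEC), with a median of -0.69. IRF8, which drives monocyte and macrophage development, fell from 1353, 1309.7 and 1338 to 257, 279.6 and 274, ZEB2 from 1164, 1167 and 1134 to 514, 514 and 553, and KLF2 from 25.2, 22.4 and 23.9 to 3.40, 4.27 and 4.35.

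Genes of the oxidative defence led by the factor NRF2 were higher. Of 26 tested, 18 rose and 3 fell (GPX1, GPX4 and GSS), with a median of 0.91. HMOX1, which breaks down heme, had 1832, 1372 and 1518 normalized CPM in Biowire and 184, 176 and 181 in digested libraries (3.13 ± 0.10, adjusted p = 1.23e-08). NQO1, a quinone reductase, rose from 16.7, 20.3 and 17.4 to 109, 96.1 and 83.5, and GSTP1, a glutathione transferase, from 133, 128 and 139 to 439, 408 and 363. FTH1, the heavy chain of the iron store ferritin, made the largest rise in CPM of all genes that were ranked, from 10173, 9910.0 and 10463 to 22922, 20556 and 19395. FTL, the light chain, picked after its values were seen, was not called (-0.10 ± 0.05). Iron and heme genes, FTH1 among them, fell in 8 of 19 cases and rose in 7, with a median of -0.12. SLC11A1, a metal pump of phagosomes, rose most of that list, from 7.82, 7.72 and 6.78 to 89.1, 101 and 93.7 (3.67 ± 0.10). Of 24 genes of the integrated stress response 13 rose and 5 fell. Without Biowire replicate 1, 12 rose and 7 fell. The rises included TRIB3 (from 3.50, 3.45 and 3.20 to 38.4, 24.8 and 34.2) and NUPR1 (from 218, 216 and 221 to 1103, 720.2 and 758). Of 24 p53 targets 13 rose and 6 fell, and CDKN1A, a brake on the cell cycle, went from 90.0, 78.7 and 85.6 to 219, 224 and 203. GDF15, a stress-induced growth factor, rose from 34.7, 26.3 and 31.3 to 228, 155 and 127. S100 genes, small calcium-binding proteins, rose in 7 of 9 cases, with S100A6 at 558, 462 and 377 against 58.1, 49.8 and 54.8.

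Glycolysis and hypoxia genes rose in 20 of 35 cases and fell in 3 (CA12, LDHB and PFKL), with a median of 0.44. ENO2, an enolase, went from 13.3, 10.7 and 12.3 to 58.5, 53.8 and 53.1, and SLC16A3, a lactate exporter, from 72.7, 68.9 and 72.2 to 176, 146 and 155. For oxidative phosphorylation 11 of 48 nuclear genes rose and 11 fell, a split that moved to 22 and 4 with library totals. Proteasome subunits rose in 19 of 31 cases, all by less than a log2 change of 1, with PSMC6 at 79.0, 80.3 and 78.9 against 47.4, 43.4 and 44.5. Cytosolic ribosomal protein genes fell in 43 of 60 cases, with a median of -0.36 and a lowest value of -0.82. RPL3 went from 1227, 1184 and 1228 to 659, 707 and 688. With library totals 26 proteasome genes rose, and 33 ribosomal protein genes fell with a median of -0.22. Over the alternative fits without a minimum fold, 13 to 26 proteasome genes rose and 33 to 48 ribosomal protein genes fell.

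Lysosomal genes showed no common direction. Of 34 hydrolase and membrane genes 13 fell and 10 rose, with a median of -0.03 that was positive with library totals. CTSD, an aspartic protease, rose from 8609, 8095 and 8559 to 17345, 15410.0 and 15134, and CTSL, a cysteine protease, from 706, 672 and 721 to 1321, 1223 and 1184. LGMN, an asparaginyl protease, fell from 10750.0, 10312 and 10676 to 3537, 3941 and 4159.8, and PSAP, the precursor of the saposins, from 18479, 17221 and 18391 to 11569, 12025 and 11054.

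Mitotic genes were low in both groups and lower in Biowire cells. Of 22 mitotic genes tested 14 fell and 0 rose, with a median of -1.39, and 6 further members were below the filter. At an unadjusted p under 0.05 1 mitotic gene rose, and DESeq2 called 0 rises. MKI67, the proliferation marker Ki-67, had 0.540, 1.96 and 0.427 normalized CPM in Biowire and 29.3, 29.7 and 28.7 in digested libraries (-4.92 ± 0.35), and TOP2A 0.540, 1.603 and 0.768 against 14.5, 14.1 and 12.8. RRM2, a subunit of ribonucleotide reductase, had 52 counts over the digested libraries and 0 over the Biowire libraries, at least 20.8-fold lower against a floor of 3 counts over the group. Of 18 DNA replication genes 5 fell (CDT1, MCM2, MCM4, RRM2 and TYMS) and 0 rose in edgeR, in DESeq2 or at an unadjusted p under 0.05. That is close to the 26.9% of all genes that fell, and the median of -0.06 was 0.08 with library totals.

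Interferon-stimulated genes, the antiviral programme, rested on 1 library. In all 6 libraries 5 of 33 fell (BST2, IFI44L, IRF9, MX2 and OAS3) and IFITM2 rose, with a median of -0.02. Without Biowire replicate 1, 25 fell and 1 rose, with a median of -0.86. The summed level of the list was 6642, 2159 and 2427 normalized CPM in Biowire replicates 1, 2 and 3. In the digested libraries it was 4546, 4464 and 4588, so replicate 1 lay above them and replicates 2 and 3 below. MX2, a called member, had 146, 49.5 and 60.8 normalized CPM in Biowire replicates 1, 2 and 3. Its digested libraries had 172, 177 and 178. For MX2 replicate 1 also lay below the digested level, but nearer to it than replicates 2 and 3. MX2 and BST2 lost their calls without Biowire replicate 2 or 3 or digested replicate 3, MX2 also without digested replicate 2, and BST2 also without digested replicate 1 and with library totals (adjusted p 0.0521 to 0.11).

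The largest log2 rises were of genes near 0 in the digested cells. GLP2R, a gut hormone receptor, had 540 counts over the Biowire libraries and 0 over the digested ones, at least 149.9-fold higher against the floor of 3 counts. Biowire replicate 1 held 383 of these counts, and without it the bound was 68.2-fold. TMTC1, a mannosyltransferase gene, had 910 counts against 1, a ratio of 758 with a 95% counting interval of 136 to 29959. EPHB1, an ephrin receptor, had 397 counts against 2 (ratio 165, interval 45.5 to 1369), and VCX, a testis gene with close copies, 435 against 3 (121, interval 41.0 to 588). Biowire replicate 1 held 221 of the EPHB1 counts, and without it the EPHB1 ratio was 115. The olfactory receptor genes OR8B8, OR8D1 and OR8G5 were also among the 8 largest, with 47.5, 21.5 and 23.4 normalized CPM of OR8G5 in the Biowire libraries against 0.514, 0.406 and 0. The intervals and floors cover counting error only. In CPM the largest rises besides FTH1, CTSD and LRP1 were of NEAT1, SPP1 and APOE. NEAT1 rose by 2.40 ± 0.38, with Biowire replicate 1 far below the other two, and by 2.78 without that library. SPP1, osteopontin, rose from 1359, 1275 and 1335 to 2204, 2976 and 3551.

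The largest log2 falls held several genes of fibroblasts and matrix. KRT7, a keratin, had 734 counts over the digested libraries and 2 over the Biowire libraries (ratio 441, interval 122 to 3647), and the gap junction gene GJA1 333 against 2 (ratio 199.97, interval 54.9 to 1658). CTGF, a matrix growth factor, fell from 42.5, 38.9 and 35.2 to 0.154, 0 and 0.171, and THBS1, a matrix glycoprotein, from 245, 188 and 158 to 1.85, 0.801 and 0.512 (-7.49 ± 0.29). KRT7, CTGF and GJA1 had 0 counts in digested macrophages sorted without FB cells, and THBS1 had 18.6 to 19.9 CPM there. PTX3, a soluble pattern receptor, fell from 31.9, 33.5 and 33.7 to 0.154, 0 and 0.171, MAMDC2 from 29.0, 26.0 and 25.2 to 0.154, 0.267 and 0.0853, and FCAR, the receptor for IgA, from 14.3, 15.4 and 14.8 to 0.154, 0 and 0.256. TIFAB, an inhibitor of TIFA in NF-kB signalling, had 718 counts against 3 (ratio 287, interval 98.0 to 1397). In CPM the falls were led by ACTB, beta-actin, from 15507, 15555 and 16014 to 6073, 6260.2 and 6264, followed by LGMN, PSAP and A2M, a protease inhibitor that went from 5778, 5500.2 and 5750.3 to 1588, 1982 and 1785. ACTG1, the other cytoplasmic actin, fell from 5358, 5303 and 5429.8 to 1727, 1732 and 1794. RNA28S5, a ribosomal RNA with many copies, fell from 9709, 9766 and 9151 to 6911, 5274 and 4956.

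The change was next set against that in macrophages sorted without FB cells, in 1 fit of 18 libraries. A difference between the tables that is the same for all mixes cancels in this contrast. The change differed for 696 of 14381 genes, 4.84%, with 391 more positive (2.72%) and 305 more negative (2.12%) in FB+MF, and leaving out 1 library gave 485 to 796 genes. The FB+MF and MF changes come from separate libraries. Of the 22 macrophage markers 13 differed, all of them in the positive direction. CD14 is an example: it had 346, 412 and 447 CPM (scaled to library totals) in Biowire FB+MF against 139, 118 and 86.5 in Biowire MF, while both digested groups lay at 364 to 402. The difference of the changes was 1.79 ± 0.19 on the log2 scale (adjusted p = 6.5e-06). FCGR3A had 312, 305 and 357 CPM in Biowire FB+MF and 33.5, 88.2 and 41.8 in Biowire MF, a difference of 2.75 ± 0.32. STAB1 had fallen in both mixes, to 390 to 615 CPM in FB+MF and 30.6 to 50.9 in MF (3.79 ± 0.27). SPP1 was higher than its digested control in FB+MF and lower in MF, where it was 380 to 532 CPM (2.84 ± 0.20, adjusted p = 1.83e-08).

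Export genes were part of the difference. Of 15 LXR and efflux genes 9 differed, all positive, and ABCG1 had 39.4 to 55.7 CPM in Biowire FB+MF, 2.90 to 4.37 in Biowire MF and 4.75 to 6.90 in the digested groups (3.89 ± 0.25, adjusted p = 8.27e-09). Of 27 efferocytosis genes 12 differed, all positive, with LRP1 at 0.79 ± 0.11 and CD36 at 1.19 ± 0.11. Integrins and matrix receptors differed in 11 of 24 cases, all positive. Cholesterol synthesis also fell for 24 of 25 genes in MF alone, where 22.8% of all genes fell. The size of the fall differed for 4 of 25 genes, all negative, with HMGCS1 at -0.70 ± 0.17, which lost the call without Biowire FB+MF replicate 2 (adjusted p = 0.0559) or digested MF replicate 3 (0.0553). No member of the proteasome, ribosomal protein, oxidative phosphorylation or mitotic lists differed at an adjusted p of 0.05 in edgeR. At an unadjusted p under 0.05 the counts were 3, 0, 0 and 6, and DESeq2 called 0, 0, 0 and 1.

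The largest differences upward were of F13A1, IL7R, DCHS1 and SLC11A1. F13A1, with 65.3 to 217 CPM in Biowire FB+MF, had 1.07 to 6.17 in Biowire MF and 1793 to 2043 in both digested groups, a difference of 5.40 ± 0.52. IL7R, a lymphoid cytokine receptor, had 20.8 to 78.5 CPM in Biowire FB+MF, highest in replicate 1, and 0 to 1.83 in Biowire MF (5.34 ± 0.73). DCHS1, a cadherin, had 7.89 to 18.2 against 0.0971 to 0.726 (5.25 ± 0.59), and SLC11A1 92.9 to 107 against 4.60 to 10.6 (3.98 ± 0.25). Downward, CTGF, KRT7, POSTN and GJA1 led, all of them at 0 in digested MF and present in Biowire MF only in replicate 3. Without that library none of the 4 was called (adjusted p = 1). FN1 was at 364 to 690 CPM in the digested FB+MF libraries and at 63.5 to 92.2 in the Biowire ones. Without FB cells it was at 2.76 to 2.89 CPM when digested and 3.80 to 61.5 from the Biowire. THBS1 kept no call without Biowire MF replicate 3 (adjusted p = 0.853). In digested cells FB+MF differed from MF for 171 genes (1.19%), all of them higher, and 23 genes were lower at an unadjusted p under 0.05. IL1R1 rose in both mixes and less in FB+MF (-1.01 ± 0.15), and TNF and CCL5 fell in both and further in FB+MF (-1.77 ± 0.32 and -2.08 ± 0.51). The difference of CCL5 lost its call with the replicate block (adjusted p = 0.0558) and without single libraries (up to 0.0792).

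**Figure D4:**
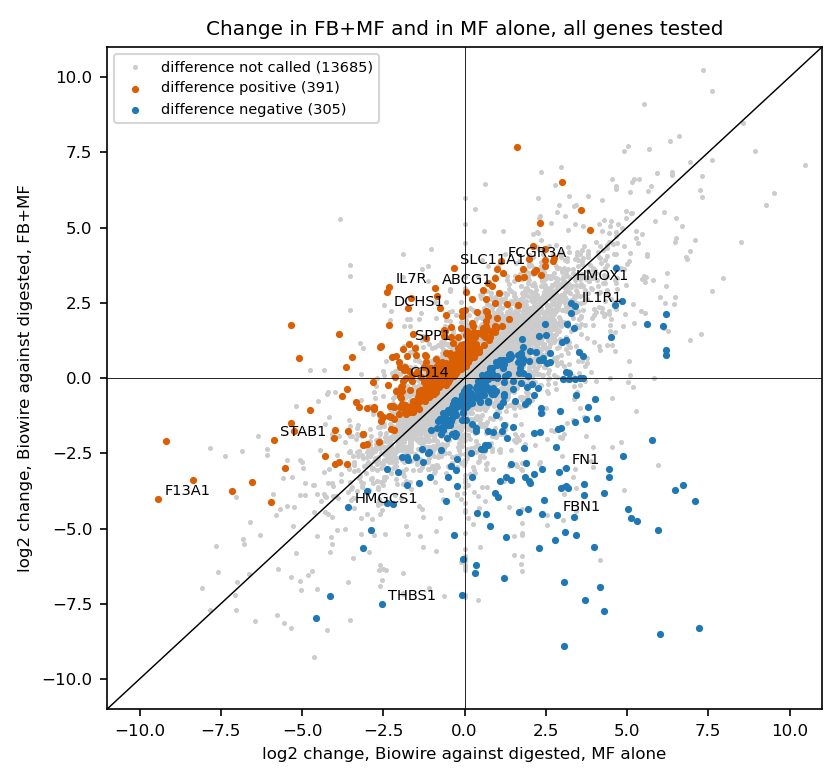
Log2 change of Biowire over digested in FB+MF (vertical) against MF alone (horizontal) for 14381 genes, with genes whose difference was called in color and a line of equal change. F13A1, STAB1 and SLC11A1 lie above the line and FN1, FBN1 and THBS1 below it, while HMOX1 and HMGCS1 lie near it.

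Against the mix with cardiomyocytes added, CM+FB+MF, the change differed for 4081 genes, 28.4%, with 2176 more positive (15.1%) and 1905 more negative (13.2%) in FB+MF. Leaving out 1 library gave 3240 to 4087, and the median difference over all genes was -0.0049. The cardiomyocyte markers moved with this contrast: they summed to 1226 to 2905 CPM in Biowire CM+FB+MF and 223 to 405 in digested CM+FB+MF, against 24.7 to 69.7 in the 6 FB+MF libraries. MYBPC3, a protein of the cardiac sarcomere, had 0.483, 1.31 and 0.902 CPM in Biowire FB+MF and 7.20 to 8.34 in digested FB+MF. With cardiomyocytes it had 27.3 to 61.3 in Biowire and 5.79 to 16.9 in digested cells (difference of the changes -4.83 ± 0.58). In digested macrophages sorted without FB cells it had 4.84 to 9.14 CPM. Its level is therefore not a measure of cardiomyocyte RNA alone. The part of cardiomyocyte RNA in the differences of other genes was not tested.

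Genes of the NRF2 defence, the V-ATPase, nuclear oxidative phosphorylation and the ribosome had more positive than negative differences in FB+MF. Of 26 NRF2 genes 23 were positive and 1 negative, as were 16 of 18 genes of the proton pump V-ATPase, 28 of 48 of nuclear oxidative phosphorylation and 34 of 60 ribosomal protein genes. NQO1 had 88.3 to 114 CPM in Biowire FB+MF. With cardiomyocytes present it had 14.7 to 22.3 CPM, around the 15.8 to 19.4 of both digested groups (2.62 ± 0.24, adjusted p = 1.13e-07). HMOX1 rose in both mixes and further in FB+MF, to 1445 to 1910 CPM against 516 to 571. FTH1 was at 20500 to 23901 CPM in Biowire FB+MF and at 9446 to 10500 with cardiomyocytes present, within the range of the digested libraries or just below it (9459 to 10886). GDF15 and CCL18 took opposite directions: GDF15 was at 134 to 238 CPM in Biowire FB+MF, at 24.9 to 32.8 in digested cells and at 7.71 to 11.5 in Biowire CM+FB+MF, and CCL18 at 566 to 652 against 24.1 to 27.0, with 42.8 to 54.5 in digested cells (4.75 ± 0.14, adjusted p = 1.29e-14). MARCO was higher in FB+MF by the same contrast (3.23 ± 0.24).

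Genes of resident macrophages and macrophage markers mostly had the more negative change in FB+MF. Of 19 resident macrophage genes 11 were negative and 4 positive, and of the 22 macrophage markers 11 and 3, whereas 13 of these markers had been positive against MF alone. F13A1 kept 1285 to 1430 CPM in Biowire CM+FB+MF, against 1701 to 1910 in both digested groups and 65.3 to 217 in Biowire FB+MF (-3.39 ± 0.44, adjusted p = 7.73e-06). STAB1 rose with cardiomyocytes present, to 4609 to 5971 CPM, and fell without them (-3.36 ± 0.26). FCGR2B likewise was at 721 to 873 CPM in Biowire CM+FB+MF, at 156 to 176 in digested cells and at 78.6 to 108 in Biowire FB+MF (-2.97 ± 0.15). SLC11A1 rose in both mixes, and less in FB+MF (-2.26 ± 0.23). Of 35 glycolysis and hypoxia genes 20 were negative and 3 positive, and of 22 immediate early genes 12 and 1. IL1B and TNF fell in both mixes and further in FB+MF, with differences of -3.01 ± 0.28 and -2.44 ± 0.31. These 13 named genes kept their calls in the fits with RLE size factors, DESeq2, a replicate block or no filter, and without any 1 library of the 4 groups.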

How the data were processed

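Total RNA of sorted macrophages was sequenced from libraries of a stranded kit, per the labels' protocols. Each deposited table gives raw counts by gene symbol, made by the authors with STAR 2.7.9a and HTSeq 0.11.0 on hg19, per the submitters' processing notes. The sources used here do not give the strand option of HTSeq, so overlapping and antisense genes cannot be told apart. DESeq2 and R 4.3.2 are named there as well. The deposited normalized tables were not used.

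Columns of the control table carry the names of the Biowire columns, so they were assigned to digested groups by their table, and their replicate numbers are those in the column names. The 17919 symbols in both tables were joined. The 1287 and 852 symbols of 1 table held at most 0.019% of a library's counts, and 0 mitochondrially encoded genes were present. Counts were fitted with edgeR 4.0.16 in R 4.3.3 (TMM, filterByExpr, two-sided quasi-likelihood F test, Benjamini-Hochberg at 0.05). The main fit held the 6 libraries, and differences from MF alone and CM+FB+MF were interaction contrasts in 1 fit of 18 libraries. SE is the log2 fold change over the root of F. Marker sums are CPM of library totals, tested on log2(CPM + 1) by exact permutation. Other levels are TMM-scaled CPM. No replicate pair was alike within counting noise: the lowest chi-square per degree of freedom was 2.49. The tests were tried on simulated counts.

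Named genes are the 8 largest log2 rises and falls and the 6 largest in CPM among called genes without overlap and with at least 10 CPM in the higher group, leaving out Y-linked, antisense and read-through symbols and those with noncoding prefixes; up to 4 members of smallest p per list; 4 in each direction of the interaction with MF; and CD14, PTPRC and CSF1R. Some genes that the rule names are not reported here. Members and the 52 lists were chosen with earlier results of these data known. Alternatives were DESeq2 1.42.0, other scalings, no filter, a minimum fold, a replicate block, the 18-library fit, and each library left out. A group with 0 counts was set at a floor of 3 counts in sum, and ratios to 1 to 3 counts got exact 95% intervals. Promoters are RefSeq's, GRCh38.p14, 1 window a gene, the first listed.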

Additional observations from a re-analysis of the deposited data

Results flagged for a closer look

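Genes named in the report are listed here where the Biowire change in FB+MF differed from that in macrophages sorted without FB cells (edgeR interaction, adjusted p under 0.05), with the difference of the log2 changes in brackets and n = 3 libraries in each of 4 groups. The 2 changes were compared by a test of the difference itself.

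Among genes of macrophage identity and immune receptors the difference was positive for CD14 (1.79), C1QA (1.84), FCGR3A (2.75), FCGR1A (1.56), CR1 (2.24), CD300A (1.45), SIGLEC10 (2.40), HLA-DRB5 (0.79) and CSF3R (0.61), and for the receptors STAB1 (3.79), MARCO (1.55), CD36 (1.19), LRP1 (0.79) and ITGB3 (1.53). It was negative for FCGR2B (-0.72) and IL1R1 (-1.01). Reads of HLA-DRB5 and FCGR1A may be shared with close copies. Among genes of lipid and cholesterol handling it was positive for ABCG1 (3.89), APOC1 (1.15), APOE (0.54), NPC1 (0.72), PLIN2 (0.71) and LPL (0.77) and negative for HMGCS1 (-0.70). SPP1 (2.84) moved up in FB+MF and down in MF alone. The transcription factor genes KLF2 (1.71) and ZEB2 (0.43) fell in both mixes and less in FB+MF.

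Among inflammatory genes it was positive for CCL2 (1.13) and ICAM1 (0.81), and negative for CCL5 (-2.08), TNF (-1.77) and TNFAIP3 (-0.64). It was positive for CTSL (1.38), SLC11A1 (3.98) and SLC16A3 (0.91), and for the genes with the largest positive values, F13A1 (5.40), IL7R (5.34) and DCHS1 (5.25).

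A2M (-0.82), MAMDC2 (-3.10) and TIFAB (-3.39) had negative values, and in digested cells their levels were not called different between FB+MF and MF (adjusted p = 1). Fibroblast, smooth muscle and matrix genes also had negative values: FBN1 (-7.41), FN1 (-6.10), THBS1 (-4.96) and TAGLN (-3.50). KRT7 (-14.52), CTGF (-15.51), POSTN (-11.16) and GJA1 (-11.09) had 0 counts in digested MF, so these fitted values depend on the prior count of the fit and give no size. Without Biowire MF replicate 3 none of the 4 was called, and GJA1 also lost its call without Biowire FB+MF replicate 3 and without digested MF replicate 2. THBS1 also lost its call without Biowire MF replicate 3. LPL, HMGCS1, HLA-DRB5, CSF3R, CCL5, TNFAIP3 and APOE each lost the call without 1 or more other single libraries (adjusted p 0.0503 to 0.0999), and CCL5 with the replicate block (0.0558). The part of fibroblast RNA in the values of FBN1, FN1, THBS1, TAGLN, KRT7, CTGF, POSTN and GJA1 was not tested.

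Against the change in CM+FB+MF the same kind of test gave positive differences for CCL18 (4.75), GDF15 (4.12), MARCO (3.23), NQO1 (2.62), HMOX1 (1.70) and FTH1 (1.26), and negative ones for MYBPC3 (-4.83), F13A1 (-3.39), STAB1 (-3.36), IL1B (-3.01), FCGR2B (-2.97), TNF (-2.44) and SLC11A1 (-2.26).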

How the results depend on the processing

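The Biowire count of 6908 genes was 6653 with DESeq2, 6880 with RLE size factors, 6973 with upper-quartile factors, 7120 with library totals, 6772 in the fit of 18 libraries and 7075 without the filter on low counts. A minimum log2 fold change of 1 in the test itself left 1415 genes, 724 higher and 691 lower. Leaving out 1 library gave 5629 to 7940 genes, the most without Biowire replicate 1. Leaving out the genes higher in digested FB+MF than in digested MF, chosen after seeing the data, gave 6792. Of 48 genes named for their difference from MF alone, 12 lost the call under 1 or more alternatives and 0 changed sign, and 0 of 13 named for that from CM+FB+MF did either. The difference from MF alone, 696 genes, was 914 with DESeq2, 683 with RLE size factors and 665 without the filter, and that from CM+FB+MF, 4081, was 4286, 4057 and 3958. Of 196 called named genes, 123 kept their side of the threshold in every alternative, most others being lost only to the minimum fold, and 4 lost the call without 1 library: MX2, BST2, ACTA2 (adjusted p = 0.0809 without Biowire replicate 2) and SLC30A1 (0.0678 without digested replicate 2). CD14 turned from -0.10 to 0.04454 with library totals. ACTA2 and MX2 were not called by DESeq2 (adjusted p = 0.0593 and 0.0801).

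Marker sums turned direction in 3 lists, none with a p that 3 against 3 could bring below 0.1. The cardiomyocyte log2 difference of 0.15 was -1.36 without TTN, its most abundant marker, and -0.12 to 0.61 leaving out 1 library. The neutrophil and mast cell difference of 2.02 was -0.27 without CSF3R. The erythroid difference of -0.01 was 0.0025 with a pseudocount of 10 CPM and -0.27 to 0.13 leaving out 1 library.

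The replicate numbers were tried as a block although they share only a number: deviations of same-numbered Biowire and digested libraries correlated at 0.06, 0.03 and -0.01, and Biowire replicate 3 correlated best with digested replicate 2 (0.07). With the replicate block 6780 genes were called (3284 higher and 3496 lower), 645 against MF alone (360 and 285) and 4106 against CM+FB+MF (2135 and 1971). The block left the marker differences as they were, with paired exact p of 0.25 for macrophage and fibroblast markers. That is the smallest two-sided p that sign flips of 3 pairs allow.

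With 3 libraries a group the depth of 10275678 to 12426918 counts limits calls of genes with few counts, and table and culture cannot be told apart.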

Other observations

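Olfactory receptor genes of the OR8 family, which lie on chromosome 11, were higher in Biowire cells as a group that was picked after its values were seen. Both tables hold 10 OR8 symbols, of which 9 were tested and called higher. OR8B4 had 7.08, 13.7 and 21.8 CPM (scaled to library totals) in the Biowire libraries and 0.19, 0.19 and 0.09 in the digested libraries (log2 fold change 6.24 ± 0.60, edgeR adjusted p = 1.42e-05). OR8D2 had 4.83, 12.8 and 17.9 CPM in Biowire libraries, and OR8A1 9.25, 7.31 and 9.47. The tested OR8 genes other than OR8A1 and OR8G5 were lowest in Biowire replicate 1. OR8G5 was highest there. PANX3, a pannexin gene of the same chromosome, had 6.68, 7.41 and 8.48 CPM against 0.10, 0 and 0.09. Macrophages sorted without FB cells had the same pattern, with means of 12.7 CPM of OR8B4 in Biowire and 0.21 in digested cells, and no OR8 gene differed between the mixes (adjusted p of the interaction 0.48 to 0.96). In the Biowire libraries with cardiomyocytes, which stand in the same table, OR8G5 had 0, 0.12 and 0 CPM, OR8B4 0, 1.37 and 0, and PANX3 0 in all 3. The genes resemble each other in sequence, so reads may be shared among them.

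Some symbols stand in 1 table only and were not compared. At a mean of 1 CPM or more there were 12 in the Biowire table and 5 in the control table. IL34, an alternative ligand of CSF1R, had 5.24 ± 0.60 CPM (SD, n = 3) in the digested FB+MF libraries, and TNFRSF18 had 3.91 ± 1.27. BTNL9, a butyrophilin-like gene, had 9.10 ± 3.26 CPM in the Biowire FB+MF libraries, and MMP8 had 4.91, 0.75 and 0.54, highest in replicate 1.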
